A study of Mus musculus with 11 samples.

Results

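Histone modifiers and chromatin remodelers were followed across 6 groups of mouse pluripotent stem cells on bead arrays. The 51 genes listed were chosen by symbol and sorted into 8 enzyme and complex classes. A gene was tested when 2 or more of the arrays detected at least 1 of its probes (detection p-value below 0.01), and its brightest such probe stood for it. This left 41 of the 51 genes, among 9620 genes and unnamed probes tested in all. No probe carried the symbols Kdm2a, Kdm3b, Kdm5a, Setdb2, Suv39h1, Arid1b or Chd7, and the probes of Kdm2b, Suv39h2 and Arid1a did not pass the detection filter.

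The 11 arrays held 2 biological replicates, as the labels call them, of each of 5 groups and 1 array of the sixth, all from male mouse cells. ESC were embryonic stem cells of a line the labels do not name. EpiSC were epiblast stem cells of line GOF18, and Epi-Sox2 were GOF18 epiblast stem cells that overexpressed wild-type Sox2 and were kept in the culture medium labelled CM. The medium of the GOF18 control is not given, so Sox2 and medium cannot be told apart in that comparison, and neither the promoter of the transgene nor the number of clones is given. EpiSC-GFP- and EpiSC-GFP+ were E3 epiblast stem cells, also in CM, sorted by flow cytometry into cells without and with fluorescence from an Oct4-GFP reporter. T9-EpiSC were epiblast stem cells of line T9, kept in medium UM over CF1 mouse embryonic fibroblasts at medium density, held 2 days without Fgf2 and collected without the fibroblasts. Embryonic stem cells model the naive, pre-implantation state of pluripotency, and epiblast stem cells the primed state of the epiblast after implantation.

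Histone tails are written by methyltransferases and acetyltransferases and erased by demethylases and deacetylases, while remodelers such as SWI/SNF (BAF), CHD, NuRD and INO80 use ATP to slide, evict or exchange nucleosomes. Many of these proteins work in complexes of interchangeable subunits, so that cells can swap one paralog for another. In pluripotent cells H3K9 methylation and NuRD are known for holding genes silent, H3K4 methylation marks active promoters, and embryonic stem cells have a SWI/SNF assembly of their own, known for Smarca4 and Smarcc1 rather than Smarca2 and Smarcc2.

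Promoters are shown for 3 genes that carry the comparisons below: Smarca2, which rose in EpiSC, Hdac2, which fell, and Ino80, which separated the sorted fractions. Each window runs from 250 bases before to 50 bases after the transcription start, as given by RefSeq for GRCm38.p6, and capitals mark GC boxes (GGGCGG on either strand, so CCGCCC where it lies on the other strand).
Smarca2 promoter, chr19:26604910-26605209, plus strand: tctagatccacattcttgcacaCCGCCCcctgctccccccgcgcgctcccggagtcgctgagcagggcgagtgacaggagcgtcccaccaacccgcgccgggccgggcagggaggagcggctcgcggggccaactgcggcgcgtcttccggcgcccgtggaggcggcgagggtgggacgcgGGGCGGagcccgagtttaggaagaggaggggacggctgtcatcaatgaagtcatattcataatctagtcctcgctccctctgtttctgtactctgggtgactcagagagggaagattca
Hdac2 promoter, chr10:36974294-36974593, plus strand: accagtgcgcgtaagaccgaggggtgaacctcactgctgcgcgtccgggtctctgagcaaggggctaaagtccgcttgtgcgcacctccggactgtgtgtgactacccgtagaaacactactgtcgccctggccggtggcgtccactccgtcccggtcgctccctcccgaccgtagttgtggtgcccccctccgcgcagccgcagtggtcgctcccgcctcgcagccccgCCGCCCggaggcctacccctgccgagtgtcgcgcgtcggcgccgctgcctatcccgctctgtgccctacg
Ino80 promoter, chr2:119477638-119477937, minus strand: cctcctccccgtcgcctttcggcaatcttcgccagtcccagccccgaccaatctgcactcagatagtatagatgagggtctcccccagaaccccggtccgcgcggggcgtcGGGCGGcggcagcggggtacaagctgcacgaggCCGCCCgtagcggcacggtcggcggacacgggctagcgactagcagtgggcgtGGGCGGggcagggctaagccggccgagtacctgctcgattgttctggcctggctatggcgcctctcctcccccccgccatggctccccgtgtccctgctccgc
These windows hold 2, 1 and 3 GC boxes and 29, 36 and 32 CpG dinucleotides. RefSeq windows were matched by symbol for 32 of the 41 tested genes, 37 windows in all, of which 30 (81.1%) held a GC box. The share was 63.3% of 9356 windows of all tested genes and 35.7% of the 32851 windows of the whole table. The median number of CpG dinucleotides was 29 in the chromatin genes, 20 in all tested genes and 7 in the whole table. The octamer ATGCAAAT, the core of sites bound by Oct4-type POU factors, was found on either strand in 1 window (2.7%), against 1.33% of the tested genes' windows. CACGTG, an E-box that reads the same on both strands, was found in 6 windows (16.2%, against 10%), and TATAAA on either strand in 2 (5.41%, against 7.19%). A match describes the letters in a window and not a bound site.

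Mean bead intensity ran from 199.7 on EpiSC-GFP- replicate 2 to 623 on ESC replicate 1, and 9250 to 11675 probes were detected per array. All log2 signals below follow background correction with an offset of 16 and quantile normalization, and differences are log2 differences with the standard error (SE) of a fit over all 11 arrays (2 arrays per group). The naive markers chosen here, 10 genes, were all detected in ESC, and their summed log2 signal was 15.22 to 15.29 there, 9.66 to 9.69 in EpiSC, 13.24 to 13.31 in Epi-Sox2, 11.27 to 11.31 in EpiSC-GFP-, 14.75 to 14.77 in EpiSC-GFP+ and 10.45 in T9-EpiSC. That sum is carried by Dppa5a (14.81 and 14.89 in ESC, 14.39 in both EpiSC-GFP+ arrays), and the mean log2 signal of the list was 9.62 to 9.63 in ESC, 5.65 to 5.74 in EpiSC, 7.62 to 7.65 in Epi-Sox2, 6.35 to 6.40 in EpiSC-GFP- and 8.74 to 8.82 in EpiSC-GFP+. Tbx3 was 9.15 and 9.07 in ESC but 6.35 and 6.48 in EpiSC-GFP+, and Nr0b1 was not detected there. The primed marker Fgf5 was 9.47 and 9.86 in EpiSC, 7.17 and 7.18 in Epi-Sox2, 8.96 and 8.97 in EpiSC-GFP-, and 6.67 and 6.87 in EpiSC-GFP+. The 7 primed markers tested, of 8 listed, had mean log2 signals of 6.78 to 6.84 in ESC and 9.92 to 10.09 in EpiSC. This mean was 8.88 to 8.99 in Epi-Sox2, 9.32 to 9.36 in EpiSC-GFP-, 8.56 to 8.66 in EpiSC-GFP+ and 9.78 in T9-EpiSC. Not all moved with Fgf5. Otx2 was 9.09 and 9.14 in EpiSC-GFP- and 9.27 and 9.57 in EpiSC-GFP+. Lefty1 was 12.57 and 12.31 in EpiSC and 12.76 and 12.6 in Epi-Sox2. Of 3 streak and mesoderm markers tested, 3 were detected in EpiSC, 0 in Epi-Sox2, 1 in EpiSC-GFP- and 0 in EpiSC-GFP+. Of 12 fibroblast markers, 9 were detected in ESC, 4 in EpiSC, 5 in Epi-Sox2, 3 in each sorted fraction and 7 in T9-EpiSC, with summed log2 signals of 11.14 to 11.20, 8.99, 10.56 to 10.71, 9.52 to 9.57 and 9.65 to 9.73 (EpiSC-GFP- and EpiSC-GFP+), and 11.18. Acta2 carried most of that sum (7.72 and 7.98 in EpiSC, 10.4 and 10.25 in Epi-Sox2). The mean log2 signal of the 9 fibroblast markers tested was 6.68 to 6.74 in ESC, 5.09 to 5.24 in EpiSC and 5.49 to 5.63 in Epi-Sox2. It was 5.33 to 5.36 in EpiSC-GFP-, 5.31 to 5.35 in EpiSC-GFP+ and 6.26 in T9-EpiSC. Col1a2, Postn and Lum were not detected in any group. These lists move with several of the comparisons below, and their part in the results was not tested. In whole-culture RNA, fewer cells of a type and less RNA per cell cannot be told apart. Sox2 was higher in Epi-Sox2 than in EpiSC by 0.94 ± 0.13 (adjusted p = 0.00131 in limma), in the direction of its label, while Pou5f1, the gene of Oct4, was slightly lower in EpiSC-GFP+ than in EpiSC-GFP- (-0.38 ± 0.13, adjusted p = 0.0494), opposite to the sort.

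Between EpiSC and ESC, 13 of the 41 chromatin genes rose and 10 fell at an adjusted p under 0.05 (limma, Benjamini-Hochberg over all 9620 features). Over all features 40.4% rose and 26.2% fell, 66.6% in all, so the 56.1% of chromatin genes called was no larger a share than among genes at large. Erasers and remodelers moved both ways within a class: the demethylases Kdm3a and Kdm4c fell while Kdm4b rose, and the SWI/SNF ATPase Smarca2 rose while the subunit Smarcd3 fell. The median difference of the chromatin genes was 0.08, and that of all features 0.22. That median depends on scaling, since it was 0.01 over all features with cyclic loess and -0.13 with scaling of each array to its median. The split followed: rises were 56.5% of the chromatin genes' calls with quantile normalization, 37.9% with loess (11 rose, 18 fell) and 27.3% with median scaling (6 rose, 16 fell), beside 60.7%, 48.9% and 39.8% over all features. All 10 falls were called under all 3 scalings, and of the 13 rises the 6 of Smarca2, Carm1, Smarce1, Hdac5, Mta1 and Kdm4b were. Loess and median scaling both moved differences from ESC downward, as the medians over all features show. They could thus remove rises but were little test of falls. Without ESC replicate 1, 6 falls were called instead of 10. Both ESC arrays also stood apart in mean bead intensity before normalization, at 623 and 594.8 against at most 371 on the other arrays, and the part of this in the comparisons with ESC was not tested.

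**Figure D1:**
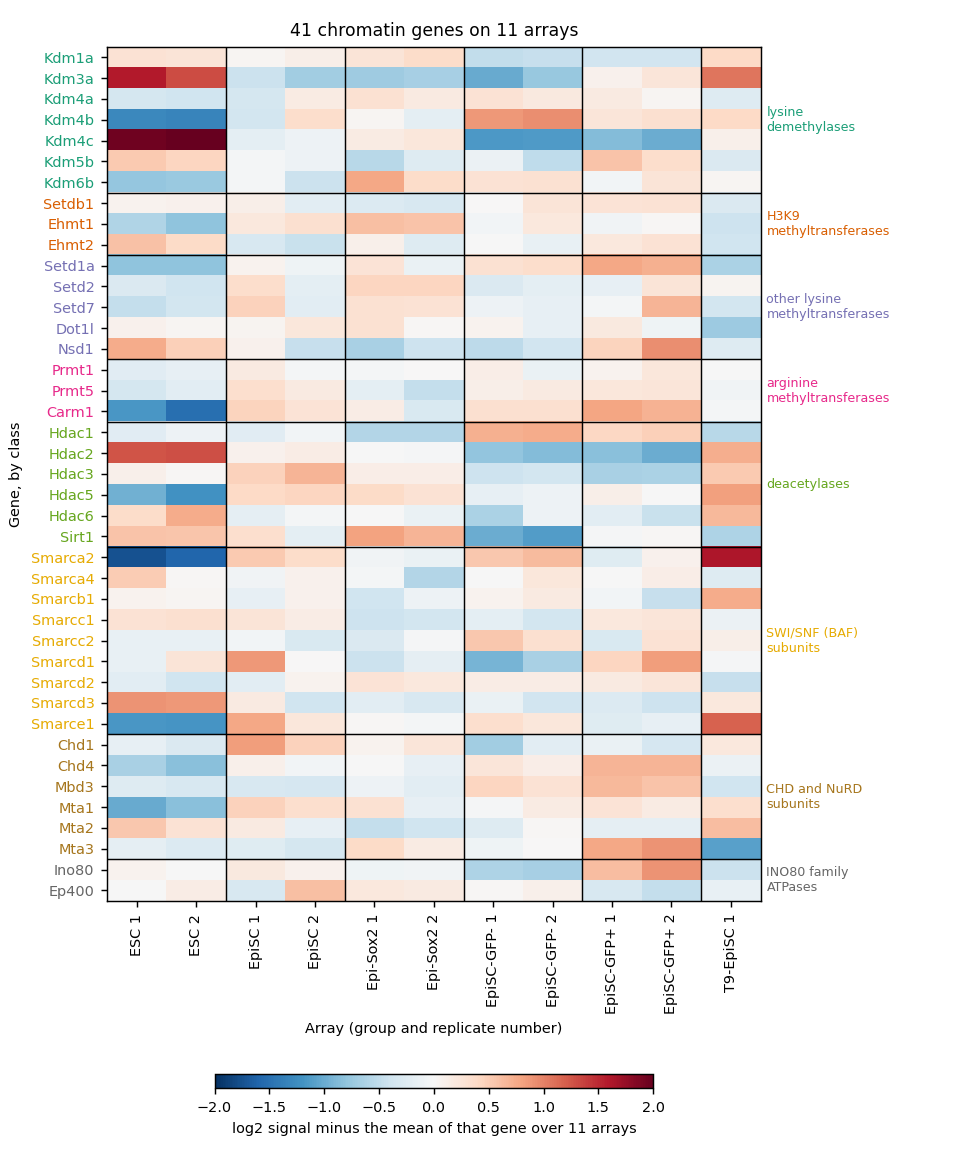
Log2 signal of the 41 tested genes (rows, by class) on each of the 11 arrays (columns), as the difference from that gene's mean over all arrays; red is higher and blue lower, and the colour scale stops at 2 in either direction. Kdm3a, Kdm4c and Hdac2 are red in both ESC arrays, and Smarca2, Carm1 and Smarce1 are blue there.

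The same ESC arrays served as control for the reporter-positive E3 cells. There 18 chromatin genes rose and 9 fell, 65.9% of the 41, beside 41.6% and 27% of all features (68.6% in all). The median difference was 0.34 for the chromatin genes and 0.24 for all features. With loess 13 rose and 14 fell, and with median scaling 6 rose and 18 fell, so that rises made up 66.7%, 48.1% and 25% of the calls, beside 60.6%, 50.6% and 33.9% over all features. All 9 falls were called under the 3 scalings, and 6 of the 18 rises (Kdm4b, Setd1a, Setd7, Carm1, Smarca2 and Chd4) were, with Setd7 not above background in ESC on the probe used. Over all features the median difference was 0.06 with loess and -0.25 with median scaling, so here too falls were little tested. Without EpiSC-GFP+ replicate 2 the median of the chromatin genes was 0.20. Since both comparisons share the ESC arrays, their values are set side by side below without a measure of likeness.

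Among the lysine demethylases 7 of 11 listed genes were tested, and in EpiSC against ESC 2 rose and 3 fell. Kdm4c, a Jumonji enzyme that removes methyl groups from H3K9, gave log2 signals of 8.49 and 8.54 in ESC, 6.34 and 6.43 in EpiSC, 6.70 and 6.77 in Epi-Sox2, 5.39 and 5.41 in EpiSC-GFP-, 5.67 and 5.55 in EpiSC-GFP+ and 6.64 in T9-EpiSC. ESC stood apart from every other array, with no overlap. The difference was -2.13 ± 0.12 in EpiSC (4.36-fold lower, adjusted p = 2.97e-07 in limma) and -2.90 ± 0.12 in EpiSC-GFP+ (7.48-fold lower, adjusted p = 4.22e-08), and the range of its 5 group means, 3.11, was the widest of the 41 genes. Kdm3a, which removes H3K9 methyl groups as well, gave 10.54 and 10.26 in ESC, 8.52 and 8.26 in EpiSC, 8.24 and 8.29 in Epi-Sox2, 7.95 and 8.20 in EpiSC-GFP-, 9.04 and 9.19 in EpiSC-GFP+ and 10.02 in T9-EpiSC. ESC was highest in both replicates, the T9-EpiSC array came next, and the reporter-positive arrays lay above the reporter-negative ones. Kdm3a fell by 2.01 in EpiSC (SE 0.16, 4.03-fold, adjusted p = 2.49e-06 in limma) and by 1.28 in EpiSC-GFP+ (SE 0.16, adjusted p = 4.5e-05). All 3 of its detected probes fell in both comparisons.

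Kdm4b, a paralog of Kdm4c, went the other way: 7.67 and 7.64 in ESC, 8.59 and 9.31 in EpiSC, 9.0 and 8.76 in Epi-Sox2, 9.83 and 9.89 in EpiSC-GFP-, 9.20 and 9.28 in EpiSC-GFP+ and 9.36 in T9-EpiSC. Both ESC arrays lay below all others. It rose by 1.29 ± 0.21 in EpiSC (adjusted p = 0.000342 in limma) and by 1.58 ± 0.21 in EpiSC-GFP+ (adjusted p = 7.41e-05), on both of its detected probes. Kdm4a, the third H3K9 and H3K36 demethylase of this family, differed by 0.29 ± 0.17 in EpiSC (not called) and rose by 0.49 ± 0.17 in EpiSC-GFP+, a call that loess and median scaling removed. Kdm5b, which erases H3K4 methylation, fell in EpiSC (-0.55 ± 0.16, adjusted p = 0.0138 in limma) and differed by -0.02 in EpiSC-GFP+. Kdm1a, the H3K4 demethylase LSD1, differed by -0.20 ± 0.11 in EpiSC and fell by 0.66 in EpiSC-GFP+ (SE 0.11, adjusted p = 0.000507). Kdm6b, which removes H3K27 methylation, gave 6.57 and 6.60 in ESC, 7.30 and 6.91 in EpiSC, 8.11 and 7.71 in Epi-Sox2, 7.62 and 7.65 in EpiSC-GFP-, 7.29 and 7.59 in EpiSC-GFP+ and 7.37 in T9-EpiSC, so that ESC was lowest on both arrays. Its rises of 0.51 ± 0.18 in EpiSC and 0.85 ± 0.18 in EpiSC-GFP+ did not hold across scalings, the first turning to -0.01 with median scaling, and its other detected probe fell in EpiSC-GFP+ against ESC by 1.09.

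**Figure D2:**
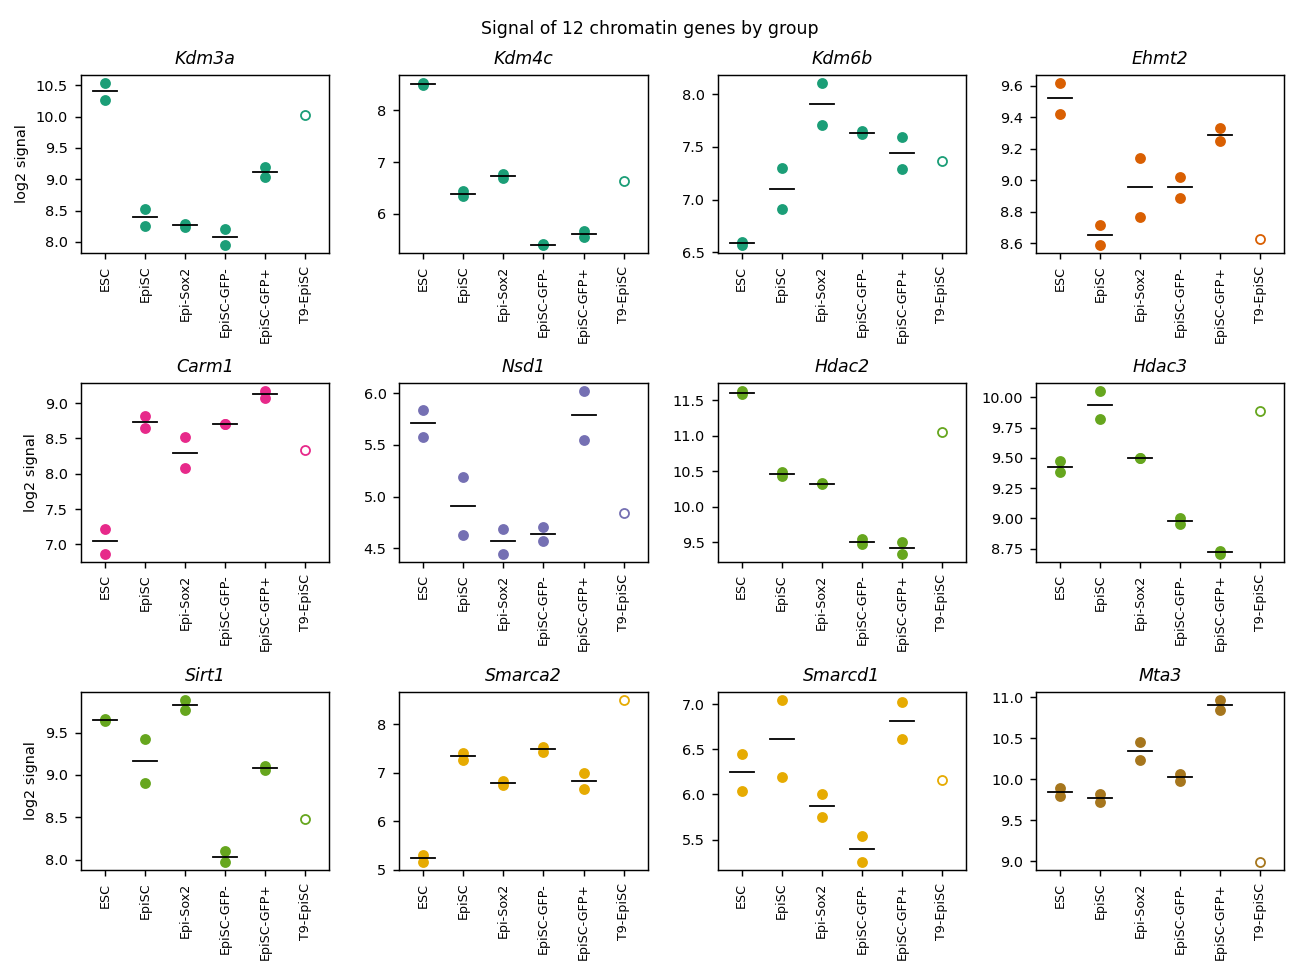
Log2 signal (vertical axis) of 12 chromatin genes in the 6 groups; each filled point is 1 array, the bar is the mean of 2 arrays, and the open point is the single T9-EpiSC array. Both ESC points lie above every other point for Kdm4c, Kdm3a and Hdac2, and below every other point for Smarca2 and Carm1, while for Smarcd1 the EpiSC replicates lie apart, at 7.05 and 6.19.

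Of the 6 listed H3K9 methyltransferases 3 were tested. Ehmt1 and Ehmt2 encode GLP and G9a, which act as a pair to place H3K9 methylation in euchromatin. On their brightest probes they moved in opposite directions in EpiSC against ESC. Ehmt2 gave 9.62 and 9.42 in ESC, 8.72 and 8.59 in EpiSC, 9.14 and 8.77 in Epi-Sox2, 9.02 and 8.89 in EpiSC-GFP-, 9.25 and 9.33 in EpiSC-GFP+ and 8.63 in T9-EpiSC. ESC was above all the others, EpiSC-GFP+ came nearest to it, and Epi-Sox2 and EpiSC-GFP- overlapped. Ehmt2 fell by 0.86 in EpiSC (SE 0.15, adjusted p = 0.000666 in limma), on both detected probes, and was 0.63 ± 0.15 higher in EpiSC-GFP+ than in EpiSC (adjusted p = 0.00901). In EpiSC-GFP+ against ESC it differed by -0.23 and was not called, while its other detected probe was called lower (-0.45). Ehmt1 gave 9.25 and 9.04 in ESC and 10.06 and 10.17 in EpiSC, without overlap, a rise of 0.97 ± 0.14 (adjusted p = 0.000152 in limma). With median scaling that rise was 0.49 and not called. Its rise in EpiSC-GFP+, 0.68 ± 0.14, turned to -0.01 with median scaling. Ehmt1 had 4 detected probes, and another of them rose by 1.45 in EpiSC and by 1.97 in EpiSC-GFP+. The remaining probes were undetected in ESC and not called in EpiSC, though the brighter of them was called higher in EpiSC-GFP+. Setdb1, which silences retroelements through H3K9 trimethylation, was not called in any of the 5 comparisons, with values between 7.80 and 8.41 over all 11 arrays.

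Among the 5 other lysine methyltransferases, 1 rose and 1 fell in EpiSC, and 2 rose in EpiSC-GFP+ against ESC. Setd1a, a catalytic subunit of the H3K4-methylating COMPASS complexes, gave 7.86 and 7.85 in ESC, 8.73 and 8.58 in EpiSC, 8.93 and 8.53 in Epi-Sox2, 8.96 and 9.01 in EpiSC-GFP-, 9.43 and 9.37 in EpiSC-GFP+ and 8.03 in T9-EpiSC. ESC was lowest and EpiSC-GFP+ highest, with no overlap with any other group. It rose by 0.80 ± 0.15 in EpiSC (adjusted p = 0.000807 in limma; 0.33 and not called with median scaling) and by 1.54 ± 0.15 in EpiSC-GFP+ (adjusted p = 8.23e-06). Nsd1, which methylates H3K36, gave 5.84 and 5.58 in ESC, 5.19 and 4.63 in EpiSC, 4.45 and 4.69 in Epi-Sox2, 4.57 and 4.71 in EpiSC-GFP-, 5.55 and 6.02 in EpiSC-GFP+ and 4.84 in T9-EpiSC. It was detected on both arrays of ESC and EpiSC-GFP+ and on neither array of Epi-Sox2 or EpiSC-GFP-. Its fall of 0.80 in EpiSC (SE 0.22, adjusted p = 0.00828 in limma) was not called without ESC replicate 1 (adjusted p = 0.0629) or without EpiSC replicate 2 (-0.52, adjusted p = 0.0754), and its other detected probe differed by -0.18. Setd7, an H3K4 monomethyltransferase, was called higher in EpiSC-GFP+ than in ESC (adjusted p = 0.0228 in limma), but its brightest probe was detected on neither ESC array, so no exact size is given, and its other detected probe differed by 0.10 and was not called. Setd2, which trimethylates H3K36, and Dot1l, which methylates H3K79, were not called in any comparison, and Dot1l had the narrowest range of group means among the 41 genes, 0.21.

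All 3 arginine methyltransferases were tested. Carm1, which methylates H3R17 and H3R26 and is known for its part in early embryo cell fate, gave 7.22 and 6.87 in ESC, 8.82 and 8.65 in EpiSC, 8.52 and 8.08 in Epi-Sox2, 8.70 and 8.70 in EpiSC-GFP-, 9.17 and 9.08 in EpiSC-GFP+ and 8.34 in T9-EpiSC. Both ESC arrays lay below all 9 others. Carm1 rose by 1.69 ± 0.17 in EpiSC (3.23-fold, adjusted p = 1.63e-05 in limma) and by 2.08 ± 0.17 in EpiSC-GFP+ (4.23-fold, adjusted p = 3.42e-06), and these rises were called under all 3 scalings. Prmt5, the main symmetric dimethyltransferase, has no settled direction. Its brightest probe rose by 0.55 ± 0.14 in EpiSC (adjusted p = 0.00505 in limma), another rose by 0.87 and the third fell by 0.53. In EpiSC-GFP+ against ESC these 3 probes again gave calls in both directions (0.52, 1.43 and -0.57), and the brightest probe's difference turned to -0.10 with median scaling. Prmt1, the main asymmetric enzyme, was not called in any comparison, with values between 12.78 and 13.23.

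The 6 deacetylases showed 2 rises and 3 falls in EpiSC, and 2 rises and 4 falls in EpiSC-GFP+ against ESC. Hdac1 and Hdac2 encode paralogs that share the NuRD, Sin3 and CoREST complexes. Hdac2 gave 11.59 and 11.63 in ESC, 10.43 and 10.49 in EpiSC, 10.33 and 10.32 in Epi-Sox2, 9.55 and 9.47 in EpiSC-GFP-, 9.5 and 9.34 in EpiSC-GFP+ and 11.06 in T9-EpiSC. The groups formed steps without overlap, ESC above T9-EpiSC, then the GOF18 arrays, then the E3 arrays, and only the sorted fractions overlapped. Hdac2 fell by 1.15 in EpiSC (SE 0.12, 2.22-fold, adjusted p = 1.53e-05 in limma) and by 2.19 in EpiSC-GFP+ (SE 0.12, 4.57-fold, adjusted p = 1.95e-07). Hdac1 gave 9.72 and 9.85 in ESC, 9.72 and 9.89 in EpiSC, 9.37 and 9.37 in Epi-Sox2, 10.66 and 10.69 in EpiSC-GFP-, 10.37 and 10.42 in EpiSC-GFP+ and 9.39 in T9-EpiSC. The E3 arrays were the highest and ESC and EpiSC overlapped. Hdac1 differed by 0.02 ± 0.12 in EpiSC and rose by 0.60 ± 0.12 in EpiSC-GFP+ against ESC (adjusted p = 0.00126 in limma), a rise that turned to -0.06 with median scaling.

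Hdac3, the catalytic subunit of the NCoR and SMRT corepressors, gave 9.47 and 9.38 in ESC, 9.82 and 10.05 in EpiSC, 9.5 and 9.5 in Epi-Sox2, 8.95 and 9.0 in EpiSC-GFP-, 8.71 and 8.73 in EpiSC-GFP+ and 9.89 in T9-EpiSC. EpiSC lay above ESC and both E3 fractions below it. The differences from ESC were 0.51 ± 0.12 in EpiSC (adjusted p = 0.00425 in limma; 0.04 and not called with median scaling) and -0.70 ± 0.12 in EpiSC-GFP+ (adjusted p = 0.000542). Hdac5, a class IIa deacetylase, gave 7.56 and 7.32 in ESC, 8.92 and 8.96 in EpiSC, 8.91 and 8.81 in Epi-Sox2, 8.36 and 8.42 in EpiSC-GFP-, 8.64 and 8.51 in EpiSC-GFP+ and 9.35 in T9-EpiSC, with ESC lowest on both arrays. It rose by 1.5 ± 0.13 in EpiSC (2.83-fold, adjusted p = 4.93e-06 in limma) and by 1.13 ± 0.13 in EpiSC-GFP+ (0.41 and not called with median scaling), and all 3 detected probes rose in both. Hdac6, a cytoplasmic deacetylase known for tubulin, fell by 0.67 in EpiSC and by 0.88 in EpiSC-GFP+ (SE 0.20 each; adjusted p = 0.0130 and 0.00259 in limma), on both detected probes. Sirt1, an NAD-dependent deacetylase, gave 9.66 and 9.64 in ESC, 9.42 and 8.90 in EpiSC, 9.89 and 9.77 in Epi-Sox2, 8.10 and 7.97 in EpiSC-GFP-, 9.06 and 9.11 in EpiSC-GFP+ and 8.48 in T9-EpiSC. Epi-Sox2 and ESC were highest, EpiSC-GFP- was lowest, and EpiSC spanned EpiSC-GFP+. Sirt1 fell by 0.49 in EpiSC (SE 0.17, adjusted p = 0.0245) and by 0.56 in EpiSC-GFP+ (SE 0.17, adjusted p = 0.0124).

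Of 11 SWI/SNF subunits 9 were tested, and in EpiSC against ESC 2 rose, 1 fell and 6 were not called. Smarca2 encodes BRM and Smarca4 BRG1, the alternative ATPases of the complex. Smarca2 gave 5.16 and 5.31 in ESC, 7.42 and 7.26 in EpiSC, 6.83 and 6.76 in Epi-Sox2, 7.44 and 7.53 in EpiSC-GFP-, 6.66 and 6.99 in EpiSC-GFP+ and 8.51 in T9-EpiSC. Both ESC arrays lay below all others and the T9-EpiSC array above all others. It rose by 2.11 ± 0.14 in EpiSC (4.30-fold, adjusted p = 1.16e-06 in limma), the largest rise among the 41 genes there, and by 1.59 ± 0.14 in EpiSC-GFP+ (3.01-fold, adjusted p = 6.33e-06). With median scaling these values were 1.83 and 1.08, still called. Smarca4 gave values between 6.17 and 7.26 over all arrays and was not called in any comparison, with -0.26 ± 0.21 in EpiSC against ESC, so the paralogs' own differences from ESC were 2.11 and -0.26.

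Smarce1, the BAF57 subunit with an HMG box, gave 7.72 and 7.70 in ESC, 9.66 and 9.11 in EpiSC, 8.91 and 8.84 in Epi-Sox2, 9.22 and 9.11 in EpiSC-GFP-, 8.64 and 8.72 in EpiSC-GFP+ and 10.06 in T9-EpiSC. ESC was again lowest and T9-EpiSC highest. Smarce1 rose by 1.67 ± 0.17 in EpiSC (3.19-fold, adjusted p = 1.51e-05 in limma) and by 0.97 ± 0.17 in EpiSC-GFP+ (0.26 and not called with median scaling), on both detected probes. The BAF60 paralogs Smarcd1, Smarcd2 and Smarcd3, which link the complex to transcription factors, differed by 0.37 ± 0.27, 0.23 ± 0.13 and -0.98 ± 0.18 in EpiSC against ESC. Only Smarcd3 was called, and the arrays of Smarcd1 and Smarcd2 overlapped between these groups. Smarcd3 gave 5.61 and 5.58 in ESC, 4.89 and 4.32 in EpiSC, 4.5 and 4.40 in Epi-Sox2, 4.58 and 4.33 in EpiSC-GFP-, 4.44 and 4.30 in EpiSC-GFP+ and 4.92 in T9-EpiSC. It was detected on both ESC arrays, 1 EpiSC array and the T9-EpiSC array only. Its fall of 0.98 in EpiSC had an adjusted p of 0.000939 in limma (SE 0.18). In EpiSC-GFP+, where it was not above background, it was at least 1.45-fold lower than in ESC (adjusted p = 0.000198), the bound being taken from the lowest signal of a detected probe on each array. Smarcd2 rose in EpiSC-GFP+ against ESC (0.51 ± 0.13) but turned to -0.19 with median scaling. Smarcc1, the scaffold BAF155, differed from ESC by -0.10 ± 0.12 in EpiSC and was not called. Its paralog Smarcc2 (BAF170) was not above background on any ESC or EpiSC array, so these groups could not be compared for it. Smarcb1, a core subunit, was not called in any comparison.

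In the CHD and NuRD class 6 of 7 genes were tested, and in EpiSC against ESC 3 rose, 1 fell and 2 were not called. The MTA proteins are alternative scaffolds of NuRD. Mta1 gave 6.00 and 6.16 in ESC, 7.46 and 7.34 in EpiSC, 7.31 and 6.83 in Epi-Sox2, 6.97 and 7.17 in EpiSC-GFP-, 7.27 and 7.16 in EpiSC-GFP+ and 7.34 in T9-EpiSC. ESC was below every other array, and Mta1 rose by 1.32 ± 0.17 in EpiSC (2.5-fold, adjusted p = 7.24e-05 in limma) and by 1.14 ± 0.17 in EpiSC-GFP+ (0.45 and not called with median scaling). Mta2 fell by 0.40 in EpiSC, at an adjusted p of 0.0498 in limma, and by 0.59 in EpiSC-GFP+ (SE 0.16, adjusted p = 0.00820). Mta3 gave 9.89 and 9.80 in ESC, 9.82 and 9.72 in EpiSC, 10.45 and 10.23 in Epi-Sox2, 9.98 and 10.07 in EpiSC-GFP-, 10.84 and 10.97 in EpiSC-GFP+ and 8.99 in T9-EpiSC. EpiSC-GFP+ was highest, then Epi-Sox2, and ESC and EpiSC overlapped. Mta3 differed by -0.08 ± 0.13 in EpiSC and rose by 1.06 ± 0.13 in EpiSC-GFP+ against ESC (adjusted p = 4.84e-05; 0.41 and not called with median scaling), where its other detected probe differed by -0.09.

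Chd4, the NuRD ATPase Mi-2beta, gave 8.86 and 8.66 in ESC, 9.61 and 9.45 in EpiSC, 9.5 and 9.34 in Epi-Sox2, 9.74 and 9.63 in EpiSC-GFP-, 10.18 and 10.18 in EpiSC-GFP+ and 9.38 in T9-EpiSC. ESC was lowest and EpiSC-GFP+ highest. Its brightest probe rose by 0.77 ± 0.13 in EpiSC (adjusted p = 0.000559 in limma; 0.30 and not called with median scaling) and another probe by 0.66, but the third fell by 0.87, so its direction in EpiSC is not settled. In EpiSC-GFP+ against ESC the same 3 probes gave 1.42 and 0.79, both called, and -0.57, not called. Chd1, a remodeler that reads H3K4 methylation and is known for the open chromatin of embryonic stem cells, gave 6.91 and 6.79 in ESC and 7.90 and 7.53 in EpiSC. It rose by 0.87 ± 0.19 (adjusted p = 0.00258 in limma; 0.37 and not called with median scaling), while its other probe differed by -0.11. Mbd3, the methyl-CpG-binding-like subunit of NuRD, differed by -0.03 ± 0.12 in EpiSC and rose by 0.90 ± 0.12 in EpiSC-GFP+ against ESC (adjusted p = 7.78e-05), though with median scaling that rise was 0.22 and not called. Of the INO80 family ATPases, Ino80 differed by 0.12 ± 0.13 in EpiSC and rose by 0.73 ± 0.13 in EpiSC-GFP+ against ESC (adjusted p = 0.000652), or 0.20 and not called with median scaling. Ep400, the ATPase of the TIP60 complex, was not called in any comparison.

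**Figure D3:**
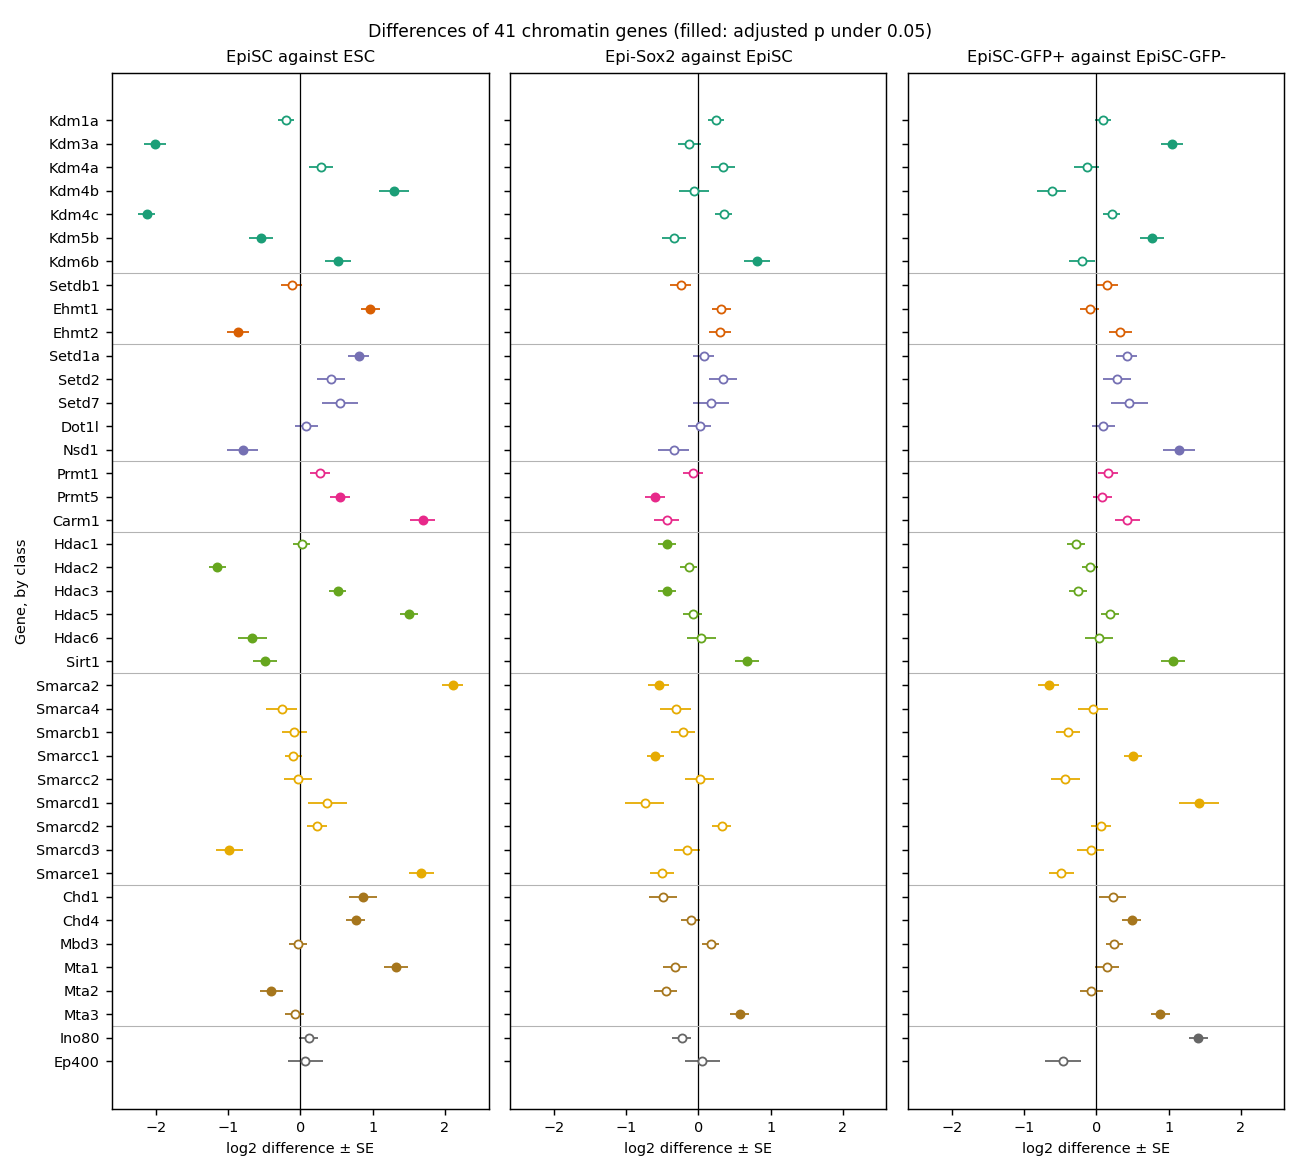
Log2 differences (horizontal axis, with 1 SE from limma) of the 41 chromatin genes by class in EpiSC against ESC, Epi-Sox2 against EpiSC and EpiSC-GFP+ against EpiSC-GFP-, each group with 2 arrays; filled points passed an adjusted p of 0.05. The first panel spans -2.13 to 2.11, the second -0.74 to 0.81, and in the third 9 of the 10 filled points lie to the right.

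Few of these genes differed between the GOF18 cells with and without the Sox2 transgene. In Epi-Sox2 against EpiSC, 3 rose and 5 fell, 19.5% of the 41, beside 10.5% and 9.4% of all features (19.9% in all), and the median difference was -0.11 against -0.01 over all features. Kdm6b rose by 0.81 ± 0.18 (adjusted p = 0.0137 in limma), Sirt1 by 0.68 ± 0.17 (adjusted p = 0.0200) and Mta3 by 0.57 ± 0.13 (adjusted p = 0.0146), each on 2 of 2 arrays above both EpiSC arrays. Of the falls, Prmt5 fell by 0.60 (SE 0.14, adjusted p = 0.0139), from 11.06 and 10.90 to 10.52 and 10.24. The BAF155 scaffold Smarcc1 fell by 0.59 (SE 0.12, adjusted p = 0.00884 in limma), from 9.13 and 9.01 to 8.45 and 8.5. Smarca2 fell by 0.55 (SE 0.14, adjusted p = 0.0263), and Hdac1 and Hdac3 by 0.44 each (SE 0.12, adjusted p = 0.0314 and 0.0332). No array overlapped between the groups in any of these 8 genes, and none of the 8 stayed called in every alternative run. Without Epi-Sox2 replicate 1, 0 genes rose and 1 fell. Without Epi-Sox2 replicate 2, 1 fell, and without EpiSC replicate 1, 3 did. Without EpiSC replicate 2 Sirt1 differed by 0.41 (adjusted p = 0.0564). Mta3 rose on both of its detected probes, while the other probes of Kdm6b, Prmt5 and Smarcc1 were not called. For Smarce1 and Hdac5 another detected probe was called lower (-0.81 and -0.56). Their brightest probes differed by -0.50 and -0.08 and were not called. The naive markers were higher in Epi-Sox2 than in EpiSC, as given above, and their part in these differences was not tested.

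Most chromatin genes were not called between the reporter fractions, and the calls lay mostly in 1 direction. In EpiSC-GFP+ against EpiSC-GFP-, 9 of the 41 rose, 1 fell and 31 were not called, beside 13.4% rising and 13.2% falling among all features (26.7% in all, and 24.4% of the chromatin genes). The median difference was 0.15 against -0.01. Rises made up 90% of the chromatin genes' calls, 90.9% with loess (10 rose, 1 fell), 100% with median scaling (14 rose, 0 fell) and 68.8% with no background correction (11 rose, 5 fell). Over all features that share was 50.4%, 57.9% with loess and 91.7% with median scaling. All 9 rises were called under the 3 scalings. Median scaling moved differences upward here (median 0.23 over all features), so it was little test of rises. Without EpiSC-GFP+ replicate 2, 2 genes fell. Without EpiSC-GFP- replicate 1 the median of the chromatin genes was 0.0563. Signal was lower on the reporter-negative arrays, which had the fewest detected probes, 9571 and 9250, against 10270 and 10315 on the reporter-positive ones, and the part of this in the result was not tested.

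Ino80, the ATPase of the complex that exchanges H2A.Z, gave 4.68 and 4.63 in EpiSC-GFP- and 5.92 and 6.20 in EpiSC-GFP+, where it was highest of all arrays. It was not above background in the negative fraction, which gives at least 1.67-fold more in the positive one (adjusted p = 0.000111 in limma). Smarcd1 gave 5.25 and 5.54 in EpiSC-GFP- and 6.61 and 7.02 in EpiSC-GFP+, a rise of 1.42 ± 0.27 (2.68-fold, adjusted p = 0.00557), while its other detected probes differed by 0.66 and 0.28, neither called. Nsd1, undetected in EpiSC-GFP-, was at least 1.38-fold higher in EpiSC-GFP+ (adjusted p = 0.00510 in limma). The other detected probe of Nsd1 differed by 0.39 and was not called. Sirt1 rose by 1.05 ± 0.17 (2.08-fold, adjusted p = 0.00210), with the negative fraction below all other arrays. Kdm3a rose by 1.04 ± 0.16 (2.06-fold, adjusted p = 0.00155 in limma), although its other probes differed by 0.17 and 0.41, neither called. Mta3 rose by 0.88 ± 0.13 (1.84-fold, adjusted p = 0.00146) on both probes. The smaller rises were those of Kdm5b (0.77 ± 0.16), Smarcc1 (0.51 ± 0.12) and Chd4 (0.49 ± 0.13), with Chd4 rising on all 3 probes. Among the brightest probes Smarca2 alone fell, by 0.66 (SE 0.14, adjusted p = 0.00980 in limma). This was not called with median scaling (-0.30), without EpiSC-GFP- replicate 2 (-0.61) or without EpiSC-GFP+ replicate 1 (-0.49). The difference of Kdm4b was -0.62 ± 0.21 and narrowly not called (adjusted p = 0.0505 in limma). Other detected probes were called lower for Kdm6b (-0.88) and Smarce1 (-0.75). The brightest probes of these 2 genes differed by -0.20 and -0.48 and were not called.

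The lines were set against each other as EpiSC-GFP+ and EpiSC, where line, sort and medium cannot be told apart. Of the 41 genes 10 were higher in EpiSC-GFP+ and 8 lower, beside 17.9% and 21.4% of all features (39.3% in all, and 43.9% of the chromatin genes). With median scaling 3 were higher and 9 lower, so that the higher share of the calls went from 55.6% to 25%, beside 45.6% and 27.4% over all features. Without EpiSC-GFP+ replicate 1, 5 were lower. Mta3 (1.14 ± 0.13, adjusted p = 0.000163 in limma) and Mbd3 (0.94 ± 0.12, adjusted p = 0.000285), both NuRD subunits, had the largest differences among the genes called higher in EpiSC-GFP+ on their brightest probes. For Mta3 the other detected probe differed by -0.11 and was not called. Hdac3 (-1.22 ± 0.12, adjusted p = 8.39e-05 in limma) and Hdac2 (-1.04 ± 0.12, adjusted p = 0.000152) were the most reduced. Chd1 was lower by 0.87 (SE 0.19, adjusted p = 0.00536) and Kdm4c by 0.78 (SE 0.12, adjusted p = 0.000704). Smarce1 was lower by 0.70 (SE 0.17), its other detected probe was called lower too (-0.74), and the call held under all 3 scalings. Median scaling moved differences downward here (median -0.18 over all features), so it was little test of a lower value. Without EpiSC replicate 1 Smarce1 differed by -0.42. The lower value of Smarca2 (-0.52 ± 0.14) rested more on single arrays. It was not called without EpiSC replicate 1 (-0.44), without EpiSC-GFP+ replicate 1 (-0.35) or in a fit of only the arrays compared. Nsd1 was higher by 0.87 ± 0.22 (adjusted p = 0.0103 in limma), but not called without EpiSC replicate 2 (adjusted p = 0.0795) or EpiSC-GFP+ replicate 2 (adjusted p = 0.0804), and its other detected probe differed by 0.0063. Setd1a (0.74 ± 0.15), Kdm3a (0.73 ± 0.16) and Chd4 (0.65 ± 0.13) were higher too, and none of the 3 was called with median scaling. The other detected probes were not called for Kdm3a (0.60 and 0.43) or Chd4 (0.13 and 0.30). Some genes not called on their brightest probe had another probe called. It was higher for Kdm4b (1.18), Prmt5 (0.56) and Ehmt1 (0.52), and lower for Hdac6 (-0.83) and Kdm6b (-0.75).

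T9-EpiSC had 1 array, so its values have no replicate check. It lay above all 10 other arrays for 6 of the 41 genes (14.6%) and below all of them for 4 (9.76%), beside 13.4% and 13.4% of all features. Smarca2 was 8.51 against at most 7.53 elsewhere, Smarcb1 9.60 against 9.03, Smarce1 10.06 against 9.66 and Hdac5 9.35 against 8.96. Kdm1a (11.14 against 11.11) and Mta2 (8.46 against 8.38) exceeded the next array by little. Mta3 was 8.99 against at least 9.72 elsewhere and Dot1l 5.85 against 6.42, while Smarcd2 (9.03 against 9.08) and Mbd3 (9.03 against 9.10) were barely below. Thus 3 SWI/SNF subunits were at their highest in T9-EpiSC and Smarcd2 at its lowest. This array was also the one among the epiblast stem cells with the most fibroblast markers detected, 7 of 12. All 3 endoderm markers tested were detected on it, as they were in EpiSC, so detection alone did not set it apart. The mean log2 signal of those endoderm markers was 6.29 in T9-EpiSC, 5.24 to 5.30 in EpiSC and lower in the other groups. The part of either list in these values was not tested.

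Other genes of these pathways were counted from lists of 128 genes, of which 81 were tested. In EpiSC against ESC 33 rose and 18 fell, in EpiSC-GFP+ against ESC 39 rose and 19 fell, in Epi-Sox2 against EpiSC 7 rose and 6 fell, in EpiSC-GFP+ against EpiSC-GFP- 16 rose and 4 fell, and in EpiSC-GFP+ against EpiSC 20 were higher and 15 lower. These calls were 63%, 71.6%, 16%, 24.7% and 43.2% of the 81 genes, beside 66.6%, 68.6%, 19.9%, 26.7% and 39.3% of all features. The 16 rises in the sorted fractions became 9 or 10 without any 1 of the 4 sorted arrays, and the 4 falls became 1 and 2 without EpiSC-GFP+ replicates 1 and 2. In Epi-Sox2 against EpiSC, 4 and 3 rose and 1 and 2 fell without Epi-Sox2 replicates 1 and 2, and 3 fell without EpiSC replicate 1. In EpiSC against ESC, 15 rose and 28 fell with median scaling. Among 8 acetyltransferases tested, Kat6b, the catalytic subunit MORF, gave 10.27 and 10.28 in ESC, 7.94 and 7.85 in EpiSC, 8.74 and 8.73 in Epi-Sox2, 7.63 and 7.57 in EpiSC-GFP-, 9.52 and 9.69 in EpiSC-GFP+ and 7.52 in T9-EpiSC. Its replicates lay close together and no 2 groups overlapped. Kat6b fell by 2.38 in EpiSC against ESC (SE 0.12, adjusted p = 1.74e-07 in limma), rose by 0.84 ± 0.12 in Epi-Sox2 against EpiSC (adjusted p = 0.00155) and rose by 2.00 ± 0.12 in EpiSC-GFP+ against EpiSC-GFP- (adjusted p = 4.81e-06). Its order over the 5 replicated groups matched that of the summed naive markers only in part, since EpiSC-GFP- was lower than EpiSC for Kat6b and higher for the markers.

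Of 16 further lysine methyltransferases and COMPASS subunits, 8 rose and 4 fell in EpiSC against ESC, among them Men1 (1.48 ± 0.12, adjusted p = 3.44e-06 in limma), the menin subunit of MLL complexes, and the actin methyltransferase Setd3 (-3.15 ± 0.19, adjusted p = 4.73e-07). In the sorted fractions 5 rose and 0 fell, among them the COMPASS subunit Ash2l (0.86 ± 0.11, adjusted p = 0.000900 in limma). Among 8 other demethylase-family genes, Kdm8 gave 5.19 and 5.5 in ESC and 8.12 and 8.27 in EpiSC, a rise of 2.85 ± 0.16 (adjusted p = 3.67e-07), and it fell by 1.15 in EpiSC-GFP+ against EpiSC-GFP- (SE 0.16, adjusted p = 0.00114). Jarid2, the Jumonji protein of Polycomb repressive complexes, gave 7.06 and 7.04 in ESC and was not above background in EpiSC, at least 4.51-fold lower (adjusted p = 7.90e-08 in limma). The H3K4 demethylase Kdm1b was 0.92 ± 0.16 higher in the positive than in the negative fraction (adjusted p = 0.00365).

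Of the CoREST corepressors, which partner LSD1, Rcor2 fell by 2.33 (SE 0.19, adjusted p = 3.73e-06 in limma) and Rcor1 by 1.35 (SE 0.20, adjusted p = 0.000238) in EpiSC against ESC, and Rcor1 rose by 1.19 ± 0.20 in Epi-Sox2 against EpiSC (adjusted p = 0.00417). Hdac8 gave 5.48 and 6.15 in EpiSC and was not above background in Epi-Sox2, at least 1.98-fold lower (adjusted p = 0.00187 in limma). Among 8 further SWI/SNF subunits, Actl6a, the BAF53A subunit of stem and progenitor cells, gave 11.40 and 11.40 in ESC, 8.55 and 8.26 in EpiSC, 7.91 and 8.04 in Epi-Sox2, 6.35 and 6.84 in EpiSC-GFP-, 7.35 and 7.26 in EpiSC-GFP+ and 8.96 in T9-EpiSC. All ESC values lay above all others, and Actl6a fell by 3.0 in EpiSC (SE 0.17, 7.99-fold, adjusted p = 4.06e-07). The PBAF subunit Arid2 fell by 1.98 (SE 0.18, adjusted p = 8.25e-06 in limma). Of the ISWI-associated genes, Baz2a, a subunit of the nucleolar remodeler NoRC, was not above background in EpiSC-GFP- and at least 2.34-fold higher in EpiSC-GFP+ (adjusted p = 0.00374).

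Different probes of a gene were compared for the 16 of the 41 genes with more than 1 detected probe. In EpiSC against ESC every detected probe rose for 3 genes and fell for 3, and probes were called in opposite directions for Chd4 and Prmt5. In EpiSC-GFP+ against ESC every probe rose for 3 and fell for 2, and Kdm6b and Prmt5 had opposite calls. In the other 3 comparisons no gene had opposite calls in a fit of all detected probes. Every probe was called in 1 direction for 1 gene in Epi-Sox2 against EpiSC, 2 in the sorted fractions and 3 between the lines. Hdac5, however, was counted lower in EpiSC-GFP+ than in EpiSC (-0.37 ± 0.13, adjusted p = 0.0461 in limma). In the fit of all probes that value was not called (adjusted p = 0.0538). Another of its probes was called higher there (0.50, adjusted p = 0.00895 in limma). The remaining 25 genes had 1 detected probe each, so their values have no such check. Probes of 1 gene can read different transcripts, and which transcripts they read was not analysed here.

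**Figure D4:**
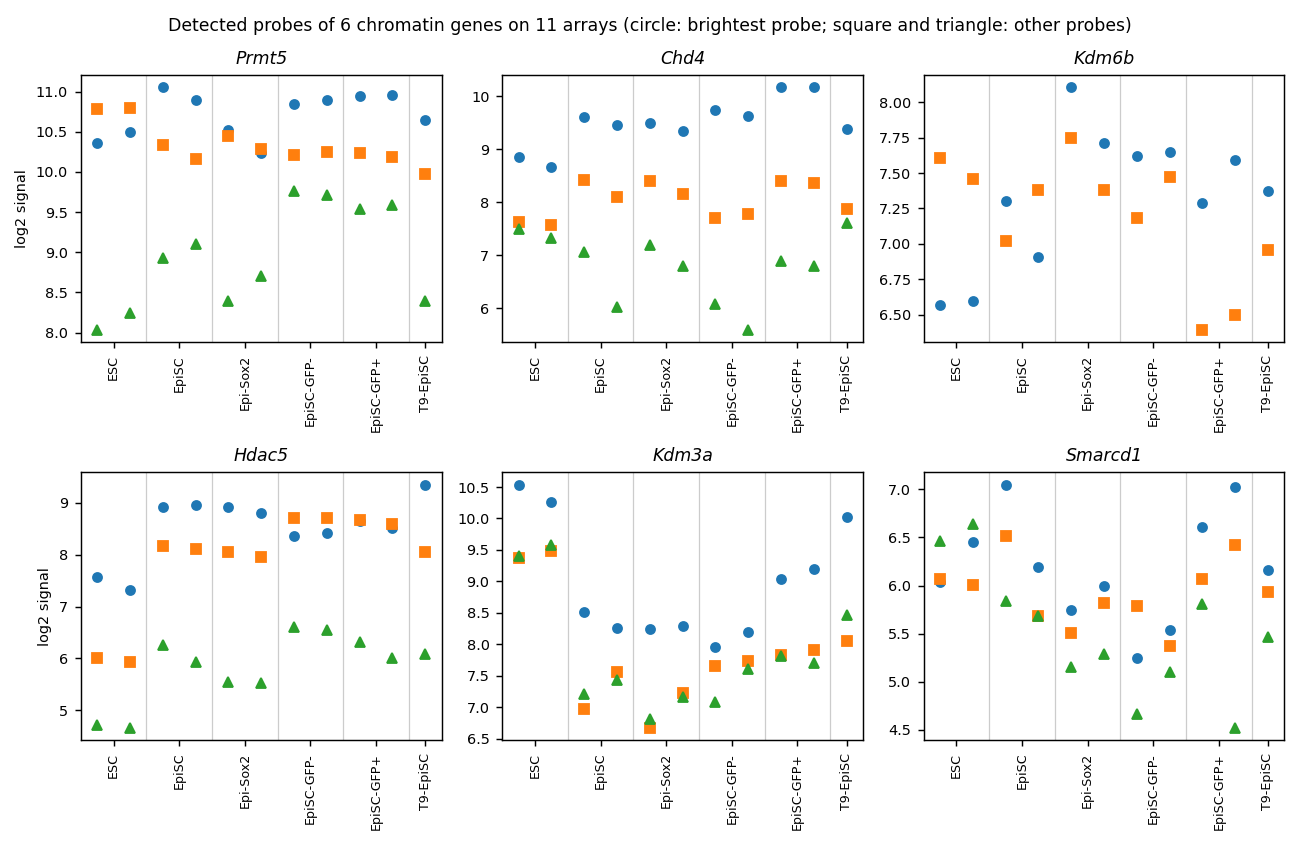
Log2 signal (vertical axis) of every detected probe of 6 chromatin genes on the 11 arrays (horizontal axis, in group order); circles are the brightest probe and squares and triangles the others. The probes of Kdm3a and Hdac5 move the same way between ESC and EpiSC, whereas those of Prmt5 and Chd4 part there and those of Kdm6b part between ESC and EpiSC-GFP+.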

How the data were processed

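RNA of 11 samples was labelled from 300 ng total RNA with 12 h of in vitro transcription, per the labels' protocols. The deposited table holds mean bead intensity for 25697 probes, which the series' design text calls non-normalized, with a detection p-value per the file headers. The series matrix holds the authors' log2 values, which had the same rank order as the intensities on every array and a common median of 2.64, so they were scaled alike; BeadStudio 3.2, RMA and lumi are named per the submitters' processing notes, in no stated order. Here intensities were background-corrected by normexp with the detection p-values (offset 16), quantile-normalized and put on log2 with limma 3.58.1 in R 4.3.3. Of the probes, 13048 were detected (p-value below 0.01) by 2 or more arrays, and the brightest per gene was kept (8873 named genes and 747 unnamed probes). The platform annotation gave 1 gene symbol for 23978 probes, none for 1719 and several for 0. Symbols were then updated by Entrez gene identifier to those of a RefSeq gene table, which held 23962 of the probes' identifiers. Where none was found the platform symbol was kept.

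Groups and replicate numbers came from the sample titles. All 11 arrays entered 1 limma fit with 1 coefficient for each group (residual degrees of freedom 5, prior 4.64), with Benjamini-Hochberg adjustment over 9620 features and a threshold of 0.05. With 2 arrays per group, precision is limited by their number. The fit was tested on simulated data. Same-numbered arrays did not deviate together (correlations of -0.0179 to 0.0858), so no pairing was used. Bounds for undetected genes compare the group means with the lowest signal among detected probes on each array of the dim group, or the gene's own signal if higher. The 51 genes and the other lists were chosen with earlier results of these data known. Genes given full statistics included the up to 6 largest rises and 6 largest falls among called members in each comparison, up to 2 called genes of each other list in 3 comparisons, and genes whose probes disagree. Alternatives covered background, scaling, detection filter, the authors' values, the variance model, probe choice and each array left out. The slide was not known, so no slide block was run.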

Additional observations from a re-analysis of the deposited data

Results flagged for a closer look

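Hdac3 differed from ESC in opposite directions in the lines GOF18 and E3. Both EpiSC arrays lay above both ESC arrays (0.51 on the log2 scale) and both EpiSC-GFP+ arrays below them (-0.70). The difference between these effects, which is that of EpiSC-GFP+ and EpiSC, was -1.22 on the log2 scale (adjusted p = 8.39e-05 in limma). The rise in EpiSC was not called with loess or median scaling (0.15 and 0.04), while the fall in EpiSC-GFP+ was called under both. Both scalings moved differences from ESC downward over all features, so they were little test of that fall.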

How the results depend on the processing

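The 51 differences counted here are the up to 6 largest called rises and 6 largest called falls of each comparison. Among them, 35 kept their call in every alternative run on single genes, and none changed sign. Of the 14 kinds of alternative, the requirement that all detected probes be called in 1 direction was applied to counts only. Disagreement between probes therefore does not enter the 35. Median scaling moved differences from ESC downward and those between the sorted fractions upward. It was therefore little test of falls in the former or rises in the latter. Among smaller called differences, Kdm6b in EpiSC and Ehmt1, Prmt5, Hdac1 and Smarcd2 in EpiSC-GFP+ against ESC changed sign with median scaling. The counts below are of the 41 chromatin genes unless other chromatin genes are named, and the causes of the shifts were not tested. With median scaling 6 rose and 16 fell in EpiSC against ESC (median -0.32; other chromatin genes 15 and 28), 6 rose and 18 fell in EpiSC-GFP+ against ESC (-0.19; 18 and 35), and 1 rose and 3 fell in Epi-Sox2 against EpiSC (-0.22; 3 others fell). Under it 14 rose and 0 fell between the sorted fractions (0.49; 27 and 1), and 3 were higher in EpiSC-GFP+ than in EpiSC (-0.15; 11 others). With loess 18 fell in EpiSC (median -0.19; 21 others rose) and 14 in EpiSC-GFP+ against ESC (0.14). An offset of 50 gave a median of 0.22 in EpiSC-GFP+ against ESC, 9 falls in Epi-Sox2 and 3 in the sorted fractions. With no background correction these were 0.17, 10 and 5, with 5 rises in Epi-Sox2 and 11 rises and 10 falls of other genes there. With no detection filter that median was 0.17. The authors' values gave 2 falls in Epi-Sox2. In the sorted fractions 2 genes fell when detection on both arrays of a group was required or T9-EpiSC was left out, and 4 with an intensity trend. Requiring all detected probes to be called in 1 direction left 8 rises in EpiSC, 3 falls in Epi-Sox2, 5 rises in the sorted fractions and 6 higher genes in EpiSC-GFP+ against EpiSC, and a size of 0.5 left 3 falls in Epi-Sox2. A fit of only the arrays compared gave 1 rise and 1 fall in Epi-Sox2 (3 others fell), 3 falls in the sorted fractions and 5 lower genes in EpiSC-GFP+ against EpiSC.

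With 1 array left out at a time, falls in EpiSC numbered 6 to 9, rises in Epi-Sox2 0 to 3 and falls 1 to 6, falls in the sorted fractions 0 to 2, and lower genes in EpiSC-GFP+ against EpiSC 5 to 8. The median was 0.0563 to 0.18 in the sorted fractions and 0.20 to 0.42 in EpiSC-GFP+ against ESC. Other chromatin genes numbered 3 to 6 rises and 1 to 6 falls in Epi-Sox2, and 9 to 10 rises and 1 to 4 falls in the sorted fractions. Where an array was left out, the lone array of its group was assumed to vary like the other groups. The replicate block gave 13 rises and 9 falls in EpiSC, and moved no count by over 1.5 times. Signals near background, as for Nsd1, Ino80, Setd7, Smarcc2 and Smarcd3, limit what could be measured, and a slide block was not run because the slides are not given.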
